A study of Mus musculus with 18 samples.

Results

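The CC chemokine ligand genes examined here were Ccl2, Ccl3, Ccl4, Ccl5, Ccl6, Ccl7, Ccl8, Ccl9, Ccl11 and Ccl12, taken as the rows of the deposited gene tables whose Ensembl ID pairs with those symbols. All 10 were found among the 30072 genes listed, and 9 of the 10 were among the 15054 genes with enough signal to be tested, the exception being Ccl3. RNA-seq was performed on heart tissue from 18 CD-1 mice, labelled as intraventricular septum and described in the study's methods as ventricular tissue. The mice formed groups of 6: controls given isoflurane anesthesia with no irradiation, and mice studied 2 weeks or 6 weeks after a single dose of 25 Gy to the whole heart under the same anesthesia. The mice were wild-type males and females aged 8 weeks or more with littermate controls, the labels do not give the sex of each mouse, and each library came from 1 mouse. The controls also received the CT imaging used for targeting, per the study's methods, so imaging and anesthesia were shared by the 3 groups.

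CC chemokines are small secreted proteins named for a pair of adjacent cysteines, and they act through G protein-coupled receptors of the CCR family on leukocytes. The monocyte chemoattractant proteins (Ccl2, Ccl7, Ccl8 and Ccl12) draw monocytes and other leukocytes into tissue, Ccl11 (eotaxin) draws eosinophils, and Ccl3, Ccl4 and Ccl5 act on monocytes, T cells and NK cells. Ccl6 and Ccl9 are made largely by myeloid cells in rodents and signal through Ccr1. In the injured heart, Ccl2 acting on Ccr2 is known for recruiting monocytes that become macrophages.

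The members lie in 2 clusters of 5 genes on chromosome 11 (GRCm38, GENCODE M21). The first, chr11:82035571-82116799, spans 81.2 kb and holds Ccl2, Ccl7, Ccl11, Ccl12 and Ccl8 in that order. The second, chr11:83525778-83664683, spans 138.9 kb and holds Ccl5, Ccl9, Ccl6, Ccl3 and Ccl4. Ccl2 overlaps Gm17268 and Ccl6 overlaps the transcript E230016K23Rik, each on the opposite strand, and since the use of strand in counting is not given in the sources used here, reads of the overlapping parts cannot be told apart. The transcripts of the 10 members shared no 31-base word with each other. With other genes, Ccl9 shared 3.98% of its 31-base words, Ccl6 1.02%, Ccl5 0.54% and Ccl11 0.1%, and the other members shared none.

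RefSeq promoter sequences (GRCm38.p6) matched 5 of the 10 members: Ccl12, Ccl8, Ccl9, Ccl6 and Ccl3. The 250 bases before the start site are shown for the neighbours Ccl12 and Ccl8 of the first cluster and the neighbours Ccl9 and Ccl6 of the second, because these were the members that could be compared as adjacent pairs with measured expression. Ccl12 (chr11:82101595-82101844) and Ccl8 (chr11:82114935-82115184) are on the plus strand, and Ccl9 (chr11:83578637-83578886) and Ccl6 (chr11:83593088-83593337) are on the minus strand. Each is written 5′ to 3′ along its gene, with motif matches in capitals:
Ccl12: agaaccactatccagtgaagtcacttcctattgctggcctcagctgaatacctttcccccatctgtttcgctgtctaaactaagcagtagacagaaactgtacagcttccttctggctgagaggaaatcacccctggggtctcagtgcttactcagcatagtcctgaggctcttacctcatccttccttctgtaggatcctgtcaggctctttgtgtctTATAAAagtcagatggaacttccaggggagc
Ccl8: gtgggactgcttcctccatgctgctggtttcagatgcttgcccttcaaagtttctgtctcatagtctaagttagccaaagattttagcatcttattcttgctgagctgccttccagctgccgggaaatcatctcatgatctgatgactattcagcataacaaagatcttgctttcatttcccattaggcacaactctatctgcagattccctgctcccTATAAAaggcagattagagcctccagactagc
Ccl9: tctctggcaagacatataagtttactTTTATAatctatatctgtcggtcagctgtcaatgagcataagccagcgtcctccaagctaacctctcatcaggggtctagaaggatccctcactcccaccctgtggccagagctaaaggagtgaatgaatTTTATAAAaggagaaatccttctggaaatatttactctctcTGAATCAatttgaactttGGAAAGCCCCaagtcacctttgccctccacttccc
Ccl6: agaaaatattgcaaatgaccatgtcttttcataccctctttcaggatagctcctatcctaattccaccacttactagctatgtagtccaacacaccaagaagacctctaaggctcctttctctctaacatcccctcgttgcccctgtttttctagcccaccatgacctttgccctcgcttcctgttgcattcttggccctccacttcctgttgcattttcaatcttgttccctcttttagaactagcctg
The motifs searched on both strands were the TATA box (TATAAA), AP-1 (TGANTCA), the interferon-stimulated response element (GAAANNGAAA), C/EBP (TTGCNNAA), PU.1 (GAGGAAGT) and the NF-kB consensus. The TATA box letters began 31 bases before the start in Ccl12 and 32 bases before it in Ccl8, and 12.4% of 32851 promoters hold them in a window of this length. Ccl9 held an AP-1 match (TGAATCA, 53 to 47 bases before the start; 6.75% of promoters), an NF-kB match 35 to 26 bases before the start (7.25%), and TATA box letters at 3 positions, of which the pair between 94 and 87 bases before the start overlap on opposite strands. Ccl6 held none of the 6 motifs. The response element, C/EBP and PU.1 letters were in none of the 5 member promoters, and in 2.98%, 9.56% and 2.44% of all promoters. Finding none among 5 is likely at such shares. A match is a description of letters and not a measured site.

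Values are given as TMM-normalized counts per 1000000 counts (CPM), computed from the deposited gene counts, and fold changes and adjusted P values come from edgeR's quasi-likelihood test with Benjamini-Hochberg adjustment over all genes tested. A gene was called when its adjusted P was under 0.05. Library totals ran from 11522987 to 15501019 estimated counts, and 3 counts in a library corresponded to 0.194 to 0.26 CPM. In bulk tissue, fewer cells of a type and less RNA per cell cannot be told apart.

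At 6 weeks post-IR, 7 of the 9 members tested were higher than in controls (Ccl2, Ccl4, Ccl5, Ccl6, Ccl7, Ccl9 and Ccl12), from 2.66-fold for Ccl6 to 7.54-fold for Ccl5. Over all genes tested, 13.5% were called higher and 11.5% lower at 6 weeks. The median log2 fold change of the 9 members was 1.96, against -0.02 over all genes tested. In 5 of the 9 (Ccl4, Ccl5, Ccl6, Ccl9 and Ccl12) every irradiated mouse was above every control, which held for 5.8% of all genes. At 2 weeks post-IR, 2 of the 9 were higher than in controls (Ccl9 and Ccl12), against 3.09% of all genes called higher and 1.93% called lower. Their median log2 fold change at 2 weeks was 0.93, against -0.002 over all genes, and no member had every irradiated mouse above every control (1.96% of all genes did). Ccl4 reached the signal required for testing through the irradiated mice, since 1 control, 5 mice at 2 weeks and 6 mice at 6 weeks reached 0.23 CPM, so its place among the 9 depended in part on its difference. Both comparisons use the same 6 controls.

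**Figure D1:**
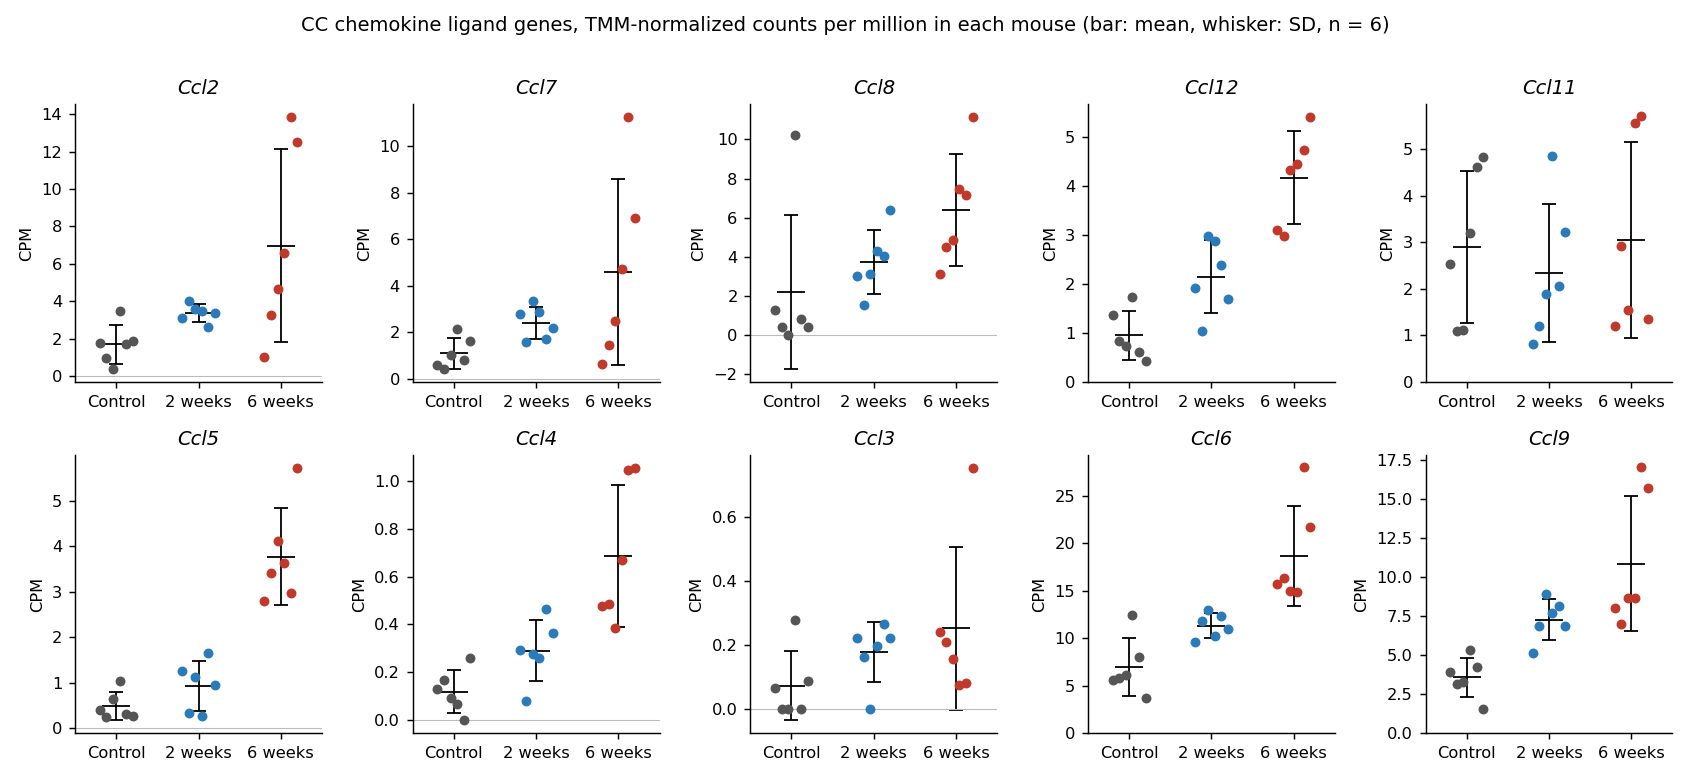
TMM-normalized CPM of the 10 CC ligand genes (vertical axes, one scale per gene) in each mouse of the control, 2-week and 6-week groups, with horizontal bars for the mean and whiskers for the SD of 6 mice. The 6-week points of Ccl5 (2.80 to 5.72 CPM) and Ccl12 (2.98 to 5.42 CPM) lie above every control, and 1 control lies at 10.2 CPM for Ccl8.

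A single control stood apart from the others. Control mouse 4 had the highest control value for 8 of the 10 members (Ccl2, Ccl3, Ccl5, Ccl6, Ccl7, Ccl8, Ccl9 and Ccl12). Its summed macrophage markers were 427 CPM, against 141 to 223 CPM in the other 5 controls, and its summed fibroblast markers were 2019 CPM, against 735 to 1050 CPM. Its summed ventricular cardiomyocyte markers were the lowest of the control group, at 26020 CPM. Without control mouse 4, 8 of the members were called higher at 6 weeks, the addition being Ccl8, and 4 at 2 weeks, the additions being Ccl6 and Ccl8. Within the 6-week group, mice 5 and 6 held the highest value of 5 members each and mouse 1 the lowest of 5.

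Ccl2 and Ccl7 encode monocyte chemoattractant proteins that bind Ccr2. Ccl2 had a lowest, median and highest level of 0.37, 1.75 and 3.47 CPM in controls, 2.65, 3.42 and 4.01 CPM at 2 weeks, and 1.01, 5.62 and 13.8 CPM at 6 weeks. The 6-week mice were spread widely: mouse 1 lay inside the control range, and mice 5 and 6 reached 13.8 and 12.5 CPM, so the groups overlapped. Ccl2 rose 3.88-fold at 6 weeks (1.96 ± 0.49, SE, on the log2 scale, adjusted P = 0.00611), with 4 of 6 mice above every control. At 2 weeks its log2 fold change was 0.93 ± 0.52 (adjusted P = 0.335), although all 6 mice were above the control median.

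In the 6-week group Ccl7 followed the same order of mice as Ccl2. Its lowest, median and highest levels were 0.417, 0.925 and 2.15 CPM in controls, 1.6, 2.49 and 3.34 CPM at 2 weeks, and 0.656, 3.61 and 11.3 CPM at 6 weeks. Again mouse 1 of the 6-week group was low and mouse 5 was high, and both irradiated groups overlapped the controls. Ccl7 rose 4-fold at 6 weeks (log2 fold change 2.00 ± 0.56, adjusted P = 0.0126) and had a log2 fold change of 1.12 ± 0.60 at 2 weeks (adjusted P = 0.307). With limma voom and sample quality weights in place of edgeR, neither gene was called at 6 weeks, with adjusted P of 0.0854 for Ccl2 and 0.113 for Ccl7.

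Ccl12, the mouse monocyte chemoattractant protein that also binds Ccr2, moved with far less spread. Its lowest, median and highest levels were 0.431, 0.787 and 1.74 CPM in controls, 1.04, 2.15 and 2.99 CPM at 2 weeks, and 2.98, 4.39 and 5.42 CPM at 6 weeks. All 6 mice at 6 weeks were above every control, and 5 of them were above every mouse at 2 weeks. Ccl12 rose 4.17-fold at 6 weeks (log2 fold change 2.06 ± 0.29, adjusted P = 5.35e-05). It also rose at 2 weeks, 2.19-fold (1.13 ± 0.31, adjusted P = 0.0423). The call at 2 weeks was lost when any of control mice 2, 3, 5 or 6, of 2-week mice 1, 3, 4, 5 or 6, or 6-week mouse 3 was left out, with adjusted P of 0.0513 to 0.0936. With all mice it was also lost with voom (0.0507), without the filter on low counts (0.0519) and with a replicate block, which treats mice of the same number as a pair (0.052).

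Ccl8, the monocyte chemoattractant protein next to Ccl12 on the chromosome, was not called by edgeR in any of the 3 comparisons with all mice included. Its levels were 1.3, 0.417, 0, 10.2, 0.832 and 0.431 CPM in control mice 1 to 6. At 2 weeks the lowest, median and highest levels were 1.52, 3.59 and 6.38 CPM, and at 6 weeks they were 3.1, 6.02 and 11.1 CPM. Control mouse 4 was above all 2-week mice and 5 of the 6-week mice, while the other 5 controls were below all 12 irradiated mice. The log2 fold change was 0.68 ± 0.65 at 2 weeks (adjusted P = 0.6) and 1.43 ± 0.61 at 6 weeks (adjusted P = 0.0996). Without control mouse 4 these became 2.53 (adjusted P = 0.00852) and 3.28 (adjusted P = 0.000103), as the plot of fold changes with each mouse left out shows. The method also changed the calls. The study's supplement lists Ccl8 among its top genes by adjusted P after irradiation, with a log-fold change above 2. The study used weighted fits in limma, and of the alternatives here the voom setting is the nearest to these. With all mice, Ccl8 was called at 6 weeks with voom (log2 fold change 3.03, adjusted P = 0.0064), library size scaling (adjusted P = 0.0399), the replicate block (0.032) and 3 settings on log-transformed transcripts per 1000000 (TPM), namely log2(TPM + 1) with and without the filter and log2(TPM + 0.1) (0.00125 to 0.00296), and at 2 weeks on log2(TPM + 1) (0.0374) and log2(TPM + 0.1) (0.0403), whereas DESeq2 called it at neither time.

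Ccl11, which encodes eotaxin, lies in the middle of the first cluster and gave similar means in the 3 groups. The lowest, median and highest levels were 1.08, 2.87 and 4.83 CPM in controls, 0.807, 1.97 and 4.84 CPM at 2 weeks, and 1.19, 2.23 and 5.71 CPM at 6 weeks. The 3 ranges overlapped almost entirely. The log2 fold change was -0.30 ± 0.48 at 2 weeks (adjusted P = 0.781) and 0.04 ± 0.47 at 6 weeks (adjusted P = 0.967). With standard errors of this size, changes well under 2-fold were not detectable for this gene, and a change near 2-fold could also go uncalled.

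Ccl5, a chemokine made by T cells, NK cells and other cells, had the largest fold change of the 9 members tested at 6 weeks in edgeR's fit. On log2(TPM + 1) and log2(TPM + 0.1) Ccl8 had the larger difference, of 2.78 and 3.62, against 2.75 and 3.42 for Ccl5. The lowest, median and highest levels were 0.25, 0.346 and 1.04 CPM in controls, 0.262, 1.03 and 1.66 CPM at 2 weeks, and 2.8, 3.52 and 5.72 CPM at 6 weeks. No mouse at 6 weeks overlapped either of the other groups, while at 2 weeks mice 2 and 4 stayed among the lower controls. Ccl5 rose 7.54-fold over controls at 6 weeks (log2 fold change 2.92 ± 0.36, adjusted P = 1.82e-05). At 2 weeks its log2 fold change was 0.92 ± 0.46 (adjusted P = 0.27).

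Ccl4 (macrophage inflammatory protein 1 beta) and Ccl3 (1 alpha) are neighbours in the second cluster and were near the limit of detection. Ccl4 had 0 to 3 counts per control, 1 to 7 at 2 weeks and 5 to 14 at 6 weeks, and its median levels were 0.111, 0.286 and 0.577 CPM. All 6 mice at 6 weeks lay above every control. Ccl4 rose 5.45-fold at 6 weeks (log2 fold change 2.45 ± 0.44, adjusted P = 0.000269). The summed counts were 9 in controls and 56 at 6 weeks, a rate ratio of 5.78 with an exact 95% interval of 2.84 to 13.3 that covers counting error only. At 2 weeks its log2 fold change was 1.28 ± 0.52 (adjusted P = 0.158).

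Ccl3 did not have enough counts to be tested. It gave 0 to 4 counts in controls, 0 to 4 at 2 weeks and 1 to 10 at 6 weeks, and the 10 counts were in 6-week mouse 6, at 0.752 CPM. The summed counts were 6, 15 and 21. The rate ratio to controls was 2.29 (exact 95% interval 0.84 to 7.2) at 2 weeks and 3.25 (1.27 to 9.85) at 6 weeks, again for counting error only. When the filter on low counts was dropped, the adjusted P was 0.563 at 2 weeks and 0.168 at 6 weeks.

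Ccl6 and Ccl9, myeloid ligands of Ccr1 that lie next to each other, moved together across the mice. Ccl6 had a lowest, median and highest level of 3.71, 5.93 and 12.5 CPM in controls, 9.62, 11.4 and 13.01 CPM at 2 weeks, and 14.9, 16.04 and 28.1 CPM at 6 weeks. Every mouse at 6 weeks was above every mouse of both other groups, and the single overlap at 2 weeks came from control mouse 4. Ccl6 rose 2.66-fold at 6 weeks (log2 fold change 1.41 ± 0.22, adjusted P = 0.000157), and at 2 weeks its log2 fold change was 0.69 ± 0.22 (adjusted P = 0.0815), or 0.95 without control mouse 4 (adjusted P = 0.00832). With all mice, Ccl6 was called at 2 weeks by DESeq2 (0.031), voom (0.0323), library size scaling (0.0247) and the 3 TPM settings (0.00409 to 0.00766).

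For Ccl9 the lowest, median and highest levels were 1.55, 3.57 and 5.34 CPM in controls, 5.14, 7.31 and 8.9 CPM at 2 weeks, and 7.01, 8.67 and 17.1 CPM at 6 weeks. At 2 weeks 5 of the 6 mice were above every control, and at 6 weeks all 6 were. Ccl9 rose 2.01-fold at 2 weeks (log2 fold change 1.01 ± 0.26, adjusted P = 0.0339) and 2.98-fold at 6 weeks (1.57 ± 0.26, adjusted P = 0.000229). The call at 2 weeks was lost without control mouse 2, 3 or 6 or without 2-week mouse 3, 4, 5 or 6, with adjusted P of 0.0503 to 0.0725.

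**Figure D2:**
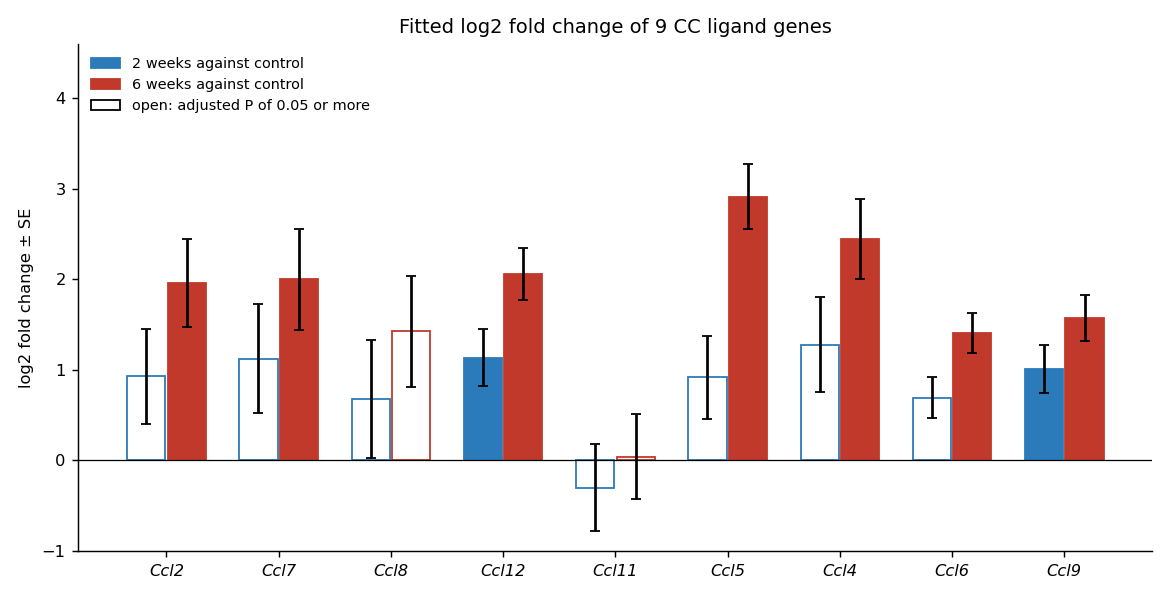
Fitted log2 fold change (vertical axis, whiskers are SE) of the 9 CC ligand genes tested, at 2 weeks (left bar of each pair) and 6 weeks (right bar) against the same 6 controls, filled where the adjusted P was under 0.05. At 6 weeks 7 bars are filled, at 2 weeks those of Ccl12 and Ccl9, and the bars of Ccl11 lie near 0.

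The mice at 6 weeks were also compared with those at 2 weeks, which asks whether the members differed between the time points in separate animals. The time at which the single control group was sampled is not given in the sources used here. Time after irradiation therefore cannot be told apart from age in any of the comparisons. Of the 9 members, 2 were higher at 6 weeks (Ccl5 and Ccl12), against 3.31% of all genes called higher and 2.01% called lower. Ccl5 was 3.99-fold higher than at 2 weeks (log2 fold change 2.00 ± 0.31, adjusted P = 0.00272) and Ccl12 was 1.9-fold higher (0.93 ± 0.25, adjusted P = 0.036). The Ccl12 call was lost without 2-week mouse 1, 2, 5 or 6 or 6-week mouse 3, 5 or 6, with adjusted P of 0.0509 to 0.086, and on log2(TPM + 0.1) (0.055) and log2(TPM + 1) without the filter (0.0517). In Ccl5 and Ccl6 every mouse at 6 weeks was above every mouse at 2 weeks, as in 2.27% of all genes, although Ccl6 (0.72 ± 0.21) had an adjusted P of 0.0535 and Ccl4 (1.17 ± 0.35) of 0.0512. These values lie at the threshold: Ccl6 was called without control mouse 4 or 6 or 6-week mouse 4 (adjusted P of 0.0189 to 0.041), and Ccl4 without control mouse 5 or 6, 2-week mouse 5 or 6-week mouse 2 (0.041 to 0.0498). With all mice, Ccl6 was called by DESeq2 (0.0219), voom (0.0224), library size scaling (0.0262) and the 3 TPM settings (0.0184 to 0.0307), and Ccl4 with library size scaling (0.0257), the replicate block (0.0478) and log2(TPM + 1) with or without the filter (0.0192 and 0.0321). The other members had log2 fold changes of 1.03 for Ccl2, 0.87 for Ccl7, 0.75 for Ccl8, 0.57 for Ccl9 and 0.34 for Ccl11, with adjusted P from 0.169 to 0.745.

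Levels of different genes were compared in transcripts per 1000000 transcripts (TPM), which account for transcript length. TPM ran higher in irradiated mice over genes in general, and the sums below include this shift. On log2(TPM + 1), the median log2 fold change over all genes tested was 0.18 at 2 weeks and 0.29 at 6 weeks. Summed over the 10 members, the level was 14.2 to 74.5 TPM in controls (median 22.2), 40.4 to 72.5 TPM at 2 weeks (median 67.1) and 72.2 to 202 TPM at 6 weeks (median 115). The highest control sum was that of mouse 4, in which Ccl8 made up 49% of the sum. In controls the median levels ran from Ccl6 (5.36 TPM) through Ccl11 (3.96), Ccl2 (2.95), Ccl12 (2.45), Ccl8 (2.11), Ccl7 (1.57), Ccl9 (1.53), Ccl5 (1.18) and Ccl4 (0.282) to Ccl3 (0.0694). At 6 weeks the order was Ccl8 (28.0 TPM), Ccl6 (21.2), Ccl12 (18.4), Ccl5 (13.7), Ccl2 (13.6), Ccl7 (8.05), Ccl9 (5.11), Ccl11 (3.96), Ccl4 (1.72) and Ccl3 (0.45). Neighbours in either order had overlapping ranges, except Ccl5 and Ccl4 in controls. Ccl11 was second in controls and eighth at 6 weeks, at nearly the same TPM. Its median share of the sum went from 11.2% in controls to 4.03% at 6 weeks, while that of Ccl5 went from 4.77% to 13.6%.

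**Figure D3:**
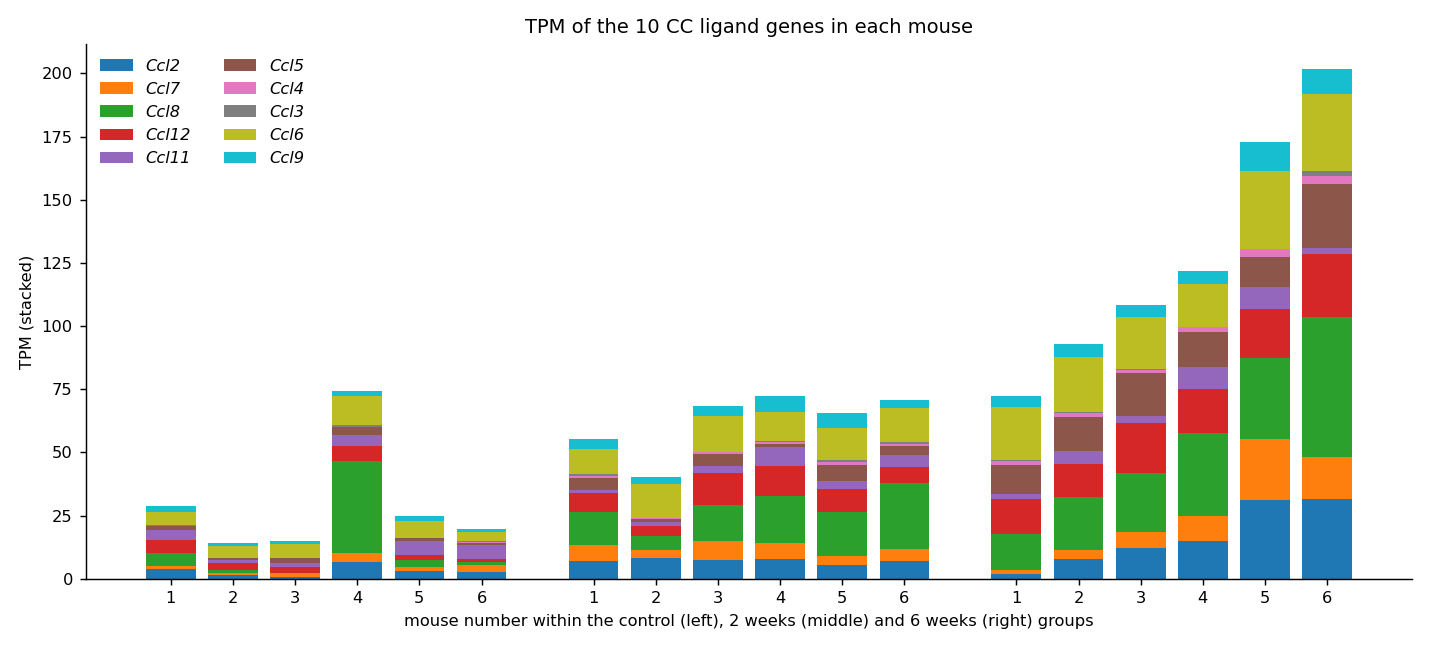
TPM of the 10 CC ligand genes stacked for each mouse (vertical axis), with mice numbered 1 to 6 in the control, 2-week and 6-week groups from left to right; the numbers are names and carry no order. The tallest bar is 202 TPM in 6-week mouse 6, and control mouse 4 (74.5 TPM) stands above the other controls with a Ccl8 segment of 36.5 TPM.

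Receptors of the CCR family were examined as a list of 10 genes, of which 5 had enough signal to be tested. At 6 weeks 2 of the 5 (Ccr2 and Ccr1) were higher than in controls and none lower. The shares over all genes tested were 13.5% called higher and 11.5% lower at 6 weeks, and 3.09% and 1.93% at 2 weeks. Ccr2, the receptor of Ccl2, Ccl7 and Ccl12 on monocytes, was at 0.648 to 6.52 CPM in controls, 3.82 to 12.4 CPM at 2 weeks and 10.1 to 16.6 CPM at 6 weeks. Its highest control was again mouse 4, and the next control was at 1.56 CPM. Ccr2 rose 3.85-fold at 2 weeks (log2 fold change 1.94 ± 0.45, adjusted P = 0.0189) and 6.11-fold at 6 weeks (2.61 ± 0.44, adjusted P = 0.000283), and in edgeR's fit it was the only receptor of the 5 called at 2 weeks.

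Ccr1, the receptor of Ccl6 and Ccl9, rose 2.15-fold at 6 weeks (log2 fold change 1.11 ± 0.37, adjusted P = 0.0335), and this call was lost without control mouse 2, 3, 5 or 6 or 6-week mouse 1, 2 or 6 (0.053 to 0.0853). At 2 weeks Ccr1 was 2.18 times the control level in edgeR's fit (log2 fold change 1.13 ± 0.37, adjusted P = 0.0815), with 6 of 6 mice above the control median. It was called at 2 weeks by DESeq2 (0.0355), with library size scaling (0.0377), on the 3 TPM settings (0.0146 to 0.0323), and without control mouse 1 (0.0495) or 4 (0.0332). Ccr7, Ccr9 and Ccr10 were not called by edgeR in any comparison, and no receptor of the 5 was called between 6 and 2 weeks. The remaining 5 receptors were below the level tested, among them Ccr3, the receptor of Ccl11, at 0 to 0.333 CPM, and Ccr8, at 0 in all controls and all mice at 2 weeks and at most 0.155 CPM at 6 weeks.

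Of 4 atypical receptor genes, 3 were tested. Ackr2, which encodes a receptor that takes up inflammatory CC chemokines without signalling through G proteins, was at 1.39 to 3.61 CPM in controls, 1.79 to 4.71 CPM at 2 weeks and 4.89 to 6.4 CPM at 6 weeks. All mice at 6 weeks were above all others. Ackr2 rose 2.01-fold over controls at 6 weeks (log2 fold change 1.01 ± 0.20, adjusted P = 0.00107) and 1.59-fold over 2 weeks (0.67 ± 0.19, adjusted P = 0.0454). The latter call was lost when any of 12 mice was left out (0.0521 to 0.0988): control mouse 2 or 5, 2-week mouse 1, 2, 3, 5 or 6, or 6-week mouse 1, 2, 3, 5 or 6. It was also lost without the filter on low counts (0.0597) and with the replicate block (0.0554). Ackr4 and Ccrl2 were not called by edgeR in any comparison.

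Among 14 other CC ligand genes listed, 13 were in the tables and 6 were tested. At 6 weeks 1 was higher and 2 were lower, against 13.5% of all genes called higher and 11.5% called lower. Ccl22, a ligand of Ccr4 made by dendritic cells and macrophages, had 4 counts in all controls together, 22 at 2 weeks and 44 at 6 weeks. Every mouse at 6 weeks was above every control, and Ccl22 rose at 6 weeks (log2 fold change 3.15 ± 0.64, adjusted P = 0.000665), with a rate ratio of 10.2 (exact 95% interval 3.72 to 39.2, counting error only). Like Ccl4, it passed the filter through the irradiated mice.

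Ccl21a, the ligand of Ccr7 made by lymphatic vessels and lymphoid stroma, fell to 6.81 to 13.3 CPM at 6 weeks from 12.6 to 30.5 CPM in controls (log2 fold change -1.07 ± 0.23, adjusted P = 0.00191). At 2 weeks it was at 15.1 to 24.4 CPM, so that every mouse at 6 weeks was below every mouse at 2 weeks (-0.87 ± 0.23, adjusted P = 0.0347). The latter call was lost without 2-week mouse 1, 2, 3, 4 or 6 or 6-week mouse 1, 3, 5 or 6 (0.0502 to 0.0827), and with library size scaling (0.0563) or the 3 TPM settings (0.0734 to 0.11). Near-identical copies of this gene exist, so its counts are uncertain. Ccl24, a further eotaxin, fell at 6 weeks (-0.96 ± 0.33, adjusted P = 0.0396). It was not called without any of control mice 2 to 6 or 6-week mouse 1, 3, 5 or 6 (0.0583 to 0.092). With all mice, the call of Ccl24 was also lost with voom (0.0925), library size scaling (0.0947) and the 3 TPM settings (0.148 to 0.214).

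**Figure D4:**
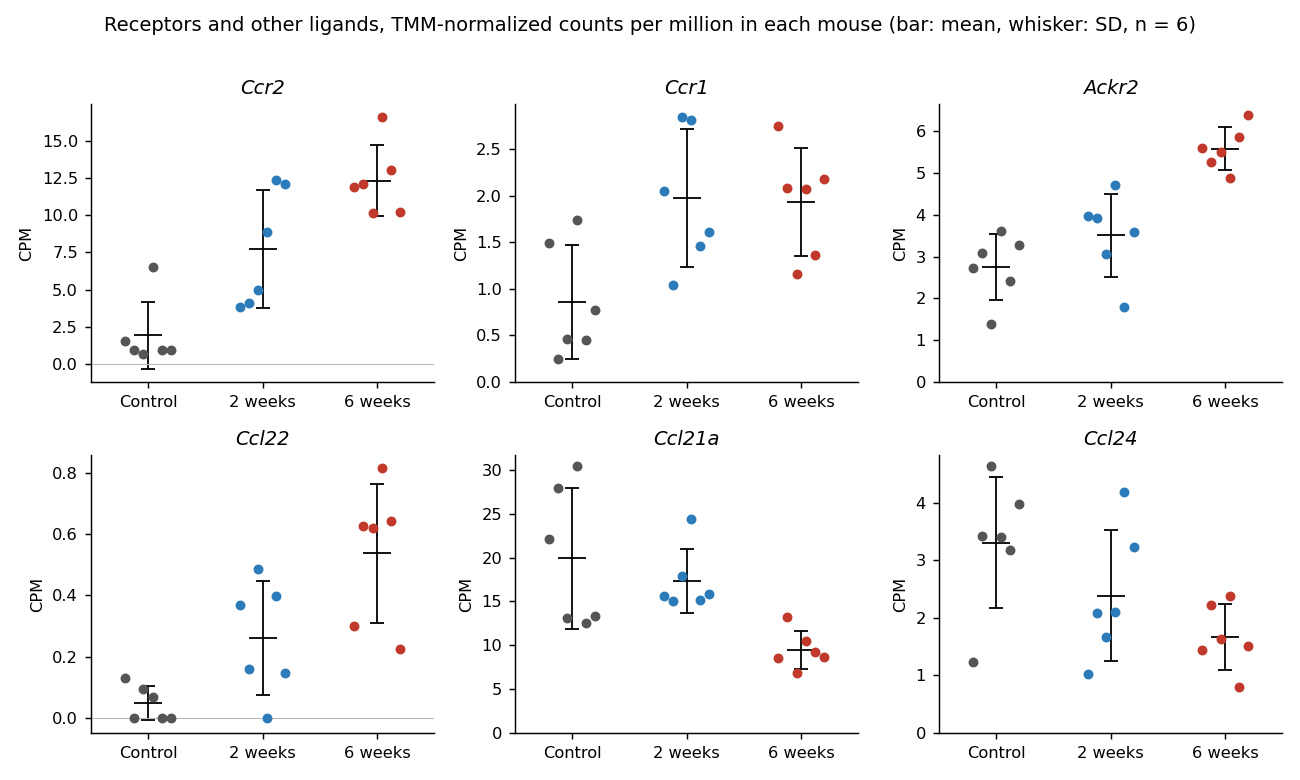
TMM-normalized CPM (vertical axes) of the receptors Ccr2, Ccr1 and Ackr2 and the ligands Ccl22, Ccl21a and Ccl24 in each mouse, with horizontal bars for the mean and whiskers for the SD of 6 mice. Ackr2 at 6 weeks (4.89 to 6.4 CPM) lies above every mouse of the other groups, and Ccl21a at 6 weeks lies below every mouse at 2 weeks.

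NF-kB is a transcription factor family known for driving Ccl2 and Ccl5, and its 9 subunit and inhibitor genes were all tested. At 6 weeks 5 of the 9 were higher and none lower: Nfkb2 (log2 fold change 0.33 ± 0.07, adjusted P = 0.00275), Rela (0.33 ± 0.07, adjusted P = 0.00325), Relb (0.45 ± 0.12, adjusted P = 0.012), and the inhibitors Nfkbie (1.11 ± 0.30, adjusted P = 0.0113) and Tnfaip3 (0.57 ± 0.18, adjusted P = 0.0268). The shares over all genes tested were 13.5% called higher and 11.5% lower at 6 weeks, and 3.09% and 1.93% at 2 weeks. When a log2 fold change above 1 was also required, 1 of the 5 remained (Nfkbie). Tnfaip3 was not called without control mouse 3 or 5 or 6-week mouse 6 (0.0512 to 0.076). At 2 weeks Nfkb2 was the only one called (0.31 ± 0.07, adjusted P = 0.0192), and none was called between 6 and 2 weeks.

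Most macrophage, monocyte, NK cell, B cell and dendritic cell markers tested were called higher at 6 weeks. Resident macrophage markers went both ways, and at most 1 marker was called in each of the T cell, neutrophil and mast cell lists. The part of these cells in the results was not tested. Over all genes tested, 13.5% were called higher and 11.5% lower at 6 weeks, and 3.09% and 1.93% at 2 weeks. The counts below are to be read beside these shares. Of 10 macrophage markers, 1 was called higher at 2 weeks and 9 at 6 weeks, and their summed level was 141 to 427 CPM in controls (median 217), 273 to 357 CPM at 2 weeks (median 308) and 394 to 527 CPM at 6 weeks (median 438). Of 5 monocyte markers tested, 4 were called higher at 6 weeks, and the sum over the 6 listed had a median of 218 CPM in controls, 331 CPM at 2 weeks and 564 CPM at 6 weeks, mostly from Fn1, which fibroblasts also express. T cell markers (1 of 4 tested higher at 6 weeks), NK cell markers (2 of 3) and B cell markers (2 of 3) had summed levels of at most 5.03 CPM in any mouse. Median sums in controls, at 2 weeks and at 6 weeks were 1.43, 1.56 and 3.72 CPM for T cell markers. They were 0.673, 1.27 and 2.76 CPM for NK cell markers, and 0.493, 1.26 and 1.99 CPM for B cell markers. In each of these lists the sum of every mouse at 6 weeks was above that of every control. Of 5 dendritic cell markers, 1 was called higher at 2 weeks and 3 at 6 weeks. Of 6 resident macrophage markers, 2 were higher and 1 lower at 6 weeks. Neutrophil (1 of 2 higher), mast cell (0 of 2) and eosinophil markers (none of 3 tested) were close to the limit of detection, with sums of at most 5.49, 0.971 and 0.387 CPM. The T cell marker Cd8b1, the NK cell marker Ncr1, the neutrophil marker Mmp8 and the eosinophil marker Epx were at 0 in every control, and no listed marker of these cells was at 0 throughout either irradiated group. Fibroblast markers gave 0 higher and 1 lower of 5, and endothelial markers 2 higher and 1 lower of 4. As a check of the tissue label, ventricular cardiomyocyte markers summed to 21820 to 41460 CPM, while atrial markers summed to 0.661 to 583 CPM. All 5 ventricular markers were lower at 6 weeks, with a median log2 fold change of -0.46.

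For each member tested, the genes whose log2 CPM ran most alike over the 18 mice were noted, as a description. The points share libraries, treatment groups and cell composition. Ccl2 was most like Ccl7 (Pearson r = 0.874, and 0.799 after subtracting the group means), followed by Edaradd and Cdr2. Ccl7 was most like Ccl2, Thap1 and Cd209a. Ccl6 was most like Ccl9 (r = 0.954, and 0.877 within groups), then Csf2rb and Rassf4. Ccl9 was most like Ccl6, Irf5 and Ikzf1.

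Ccl8 was most like Csf1r, the receptor that macrophages need for survival (r = 0.945, and 0.947 within groups), then Tlr13 and Mrc1. Ccl12 was most like Ly86 (r = 0.958, and 0.833 within groups), Irf5 and Pou2f2, and Ccl11 was most like Bmper (r = 0.823, and 0.851 within groups), Hsd11b1 and Shisal1. For Ccl5 the nearest genes were Fndc3a (r = 0.931, and 0.749 within groups), Upp1 and Ms4a4c, and for Ccl4 they were Pgf (r = 0.89, and 0.585 within groups), Pvr and Pip4k2a. The values for Ccl8 and Ccl11 did not fall when the group means were subtracted, whereas that of Ccl4 fell by the largest amount among these first-ranked genes. Those of Ccl8 include control mouse 4, which stood far above the other controls for Ccl8, and r was not computed without this mouse.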

How the data were processed

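RNA-seq was performed by the authors on 18 mouse hearts, with 1 library per mouse made with the KAPA RNA HyperPrep kit. Per the labels and the study's methods, reads were aligned to GRCm38 with STAR, quantified with Salmon (version 1.0) and summed to genes with tximport. The authors deposited estimated counts per gene, not normalized, and TPM values scaled to 1000000 transcripts per mouse. Groups were taken from the labels. The 18 columns were all assigned, no 2 mice had identical values, and p-values weigh each group difference against the spread between mice.

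The estimated counts were rounded and normalized by TMM in edgeR 4.0.16 (R 4.3.3). A gene was tested if 6 or more mice reached 0.23 CPM, and a quasi-likelihood model over the 3 groups was tested two-sided with Benjamini-Hochberg adjustment over 15054 genes. SE is the log2 fold change divided by the square root of F. Alternatives used DESeq2 1.42.0, limma 3.58.1 with voom and sample quality weights, limma on log2(TPM + 1) or log2(TPM + 0.1), library size scaling, no filter, the filter as literally worded in the methods, a replicate block, and each mouse left out. The steps were tested on simulated data. Symbols came from the reference tables for 29301 of 30072 genes. Depth was 11522987 to 15501019 counts per mouse, which leaves genes under about 3 counts per library unresolved, and intervals and such floors cover counting error only. Figures were drawn with matplotlib 3.10.9.

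The members and gene lists were chosen with earlier results of these data known. All 10 members were named. A gene of the receptor list is not reported here. Genes of the receptor, other ligand, atypical receptor and NF-kB lists were named when called, and the 3 genes most like each tested member were named by Pearson r of log2 CPM (prior count of 2). Shared replicate numbers did not pair the mice.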

Additional observations from a re-analysis of the deposited data

Results flagged for a closer look

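In 63 groups of 6 mice, 6 held a mouse whose gap to its nearest neighbour took up more of the group's range than Dixon's 95% critical value. Chance exceeds this value in about 1 in 20 groups of normally distributed values. That rate is nominal here, since low counts are not normally distributed and the groups are different genes in the same mice. Control mouse 4 was far above the other controls for Ccl8 (10.2 CPM, next 1.3), Ccl3 (0.278 CPM, next 0.0863) and Ccr2 (6.52 CPM, next 1.56). In 6-week mouse 6, Ccl3 was at 0.752 CPM (next 0.239). Among the mice at 2 weeks, Ccl21a was far above the others in mouse 4 (24.4 CPM, next 17.9) and Nfkb2 far below in mouse 5 (27.5 CPM, next 31.6).

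The effect at 6 weeks differed from that at 2 weeks by edgeR's test of 6 weeks against 2 weeks for 4 named genes. The differences were 0.93 for Ccl12 (adjusted P = 0.036), 2.00 for Ccl5 (adjusted P = 0.00272), 0.67 for Ackr2 (adjusted P = 0.0454) and -0.87 for Ccl21a (adjusted P = 0.0347) on the log2 scale.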

How the results depend on the processing

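At 6 weeks against controls, 6 to 8 members were called under every alternative run and none was called lower. At 2 weeks the number called was 1 without the filter on low counts, 5 on log2(TPM + 1) and 6 on log2(TPM + 0.1), against 2, and 0 to 4 when 1 mouse was left out. Between 6 and 2 weeks it was 1 when a log2 fold change above 1 was also required, 4 with library size scaling or log2(TPM + 1), against 2, and 1 to 4 when 1 mouse was left out. The cause was not tested.

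On log2(TPM + 1) the median log2 fold change over all genes was 0.18 at 2 weeks and 0.29 at 6 weeks. Genes called on log2(TPM + 1) were nearly all higher, 2774 against 39 lower at 2 weeks and 7354 against 118 at 6 weeks. Scaling by library size alone moved the median over all genes, on the log2 scale, to 0.15 at 2 weeks, 0.24 at 6 weeks and 0.11 between them. All genes called at 2 weeks numbered 1789 (1707 higher, 82 lower), against 755 (465 and 290), and 136 with a log2 fold change above 1, 1229 with DESeq2, 2813 on log2(TPM + 1), 3026 on log2(TPM + 0.1), 2366 on log2(TPM + 1) without the filter and 453 to 882 with 1 mouse left out. At 6 weeks they numbered 5820 (5494 higher, 326 lower) with library size scaling, against 3760 (2029 and 1731), and 896, 7472, 7463 and 7181 with the fold threshold and the 3 TPM settings in the same order. Between 6 and 2 weeks library size scaling called 1098 higher and 104 lower, against 499 and 303, the fold threshold left 172, against 802, and leaving out 1 mouse gave 323 to 995.

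The receptors called at 2 weeks were 2 with DESeq2 or library size scaling and 3 on the TPM settings, against 1, and 1 to 2 with 1 mouse left out, and at 6 weeks 4 on log2(TPM + 1) without the filter, against 2, and 1 to 3 with 1 mouse left out. Atypical receptors called were 2 at 6 weeks on log2(TPM + 1) and log2(TPM + 0.1), against 1. Between 6 and 2 weeks they were 0 with the fold threshold or without the filter, against 1, and 0 to 1 with 1 mouse left out. Other ligands called were 1 at 2 weeks with library size scaling, against 0, and 0 between 6 and 2 weeks with library size scaling, the fold threshold and the TPM settings, against 1. With 1 mouse left out both ran from 0 to 1. NF-kB genes called at 2 weeks were 0 with the fold threshold, 3 with library size scaling and 4, 4 and 3 on the TPM settings, against 1, and 1 to 2 with 1 mouse left out. At 6 weeks they were 1 with the fold threshold and 8 on the TPM settings, against 5, and between 6 and 2 weeks 2 with library size scaling, 2 on log2(TPM + 1) and 1 on log2(TPM + 0.1), against 0.

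Signs turned in results that were not called. Ccl11 at 6 weeks was -0.15 with voom and ran from -0.23 to 0.22 with 1 mouse left out, below 0 without control mouse 1, 2 or 3 or 6-week mouse 4 or 5. Ccl21a at 2 weeks was 0.116, 0.123 and 0.116 on the TPM settings. With 1 mouse left out, Tnfaip3 at 2 weeks ran from -0.0283 to 0.211 (below 0 without control mouse 3), Nfkb2 between 6 and 2 weeks from -0.0203 to 0.0531 (below 0 without 2-week mouse 5 or 6-week mouse 3), and Ccr1 between 6 and 2 weeks from -0.158 to 0.113. Ccr1 between 6 and 2 weeks was also above 0 with voom (0.0036), library size scaling (0.092) and the TPM settings (0.0719, 0.136 and 0.0719).

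The replicate block, which treats mice with the same number as a pair, gave 1 member called at 2 weeks, 8 at 6 weeks and 3 between them, and 0 NF-kB genes at 2 weeks and 0 atypical receptors between 6 and 2 weeks. Correlations of same-numbered deviations ran from -0.08 to 0.11, and 0, 1 and 2 of 6 mice were most like their own number in the 3 pairs of groups, so the numbers are taken as names.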
